A study of Mus musculus with 8 samples.

Results

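Cd5l, Folr2, Fabp7, Cdh5, Slc16a9 and Il18bp are 6 genes taken here as identity genes of Kupffer cells (the macrophages that live in liver sinusoids), without being lectins, cell-surface scavenger receptors or transcription factors. The data hold no macrophages of other tissues, so how particular the genes are to Kupffer cells was not tested. The 6 genes were found by symbol among the 56691 genes of the deposited table, where each had 1 row, and all 6 were among the 15870 genes with enough counts to be tested. The libraries came from Kupffer cells of Vsig4 knockout mice (KO, Vsig4-/-; 4 libraries) and wild-type mice (WT; 4 libraries), all with liver metastases of B16F10, a mouse melanoma line, and all taken 7 days after the tumour cells were injected. Vsig4 encodes a complement receptor and checkpoint protein of resident macrophages, and every library held living cells sorted as DAPI-, CD45+ and Tim-4+. The sources used here give no age, sex or strain of the mice, no cell type to which the deletion was limited, and no group without tumour, so nothing below separates an effect of Vsig4 from one that needs the tumour. Whether each library is a separate animal is not stated by the labels, so a p-value here is set by the variation from library to library, part of which may be technical.

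The products of these genes do different work in a cell that faces the blood of the liver sinusoid. Cd5l encodes a secreted protein of the scavenger receptor cysteine-rich (SRCR) family, also called apoptosis inhibitor of macrophage, which circulates bound to IgM. Folr2 encodes folate receptor beta, a surface protein that binds folate, and Fabp7 encodes a fatty acid-binding protein of the cytosol first known from the brain. Cdh5 encodes VE-cadherin, the adhesion protein of endothelial junctions. Slc16a9 encodes a carrier of the monocarboxylate transporter family, and its human form transports carnitine. Il18bp encodes a secreted decoy that binds the cytokine interleukin-18 and keeps it from its receptor.

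The promoters were read because the 6 genes varied together over the libraries, as described further on. The RefSeq promoter table for GRCm38.p6 covered 5 of the 6 genes with 6 promoters, each 300 bases from 250 before to 50 after a start site. They were searched on both strands for GAGGAA, an ETS-type motif read by the macrophage factors PU.1 and SPI-C, AGGTCA, a half-site of the sterol receptor LXR with its partner RXR, TGGGAA, of the Notch factor RBPJ, and CATGTG, an E-box read by the MiT family. The promoters with a match are shown 5′ to 3′ on the strand of the gene, with the matches in capitals.
Cd5l, GRCm38.p6 chr3:87357631-87357930, plus strand: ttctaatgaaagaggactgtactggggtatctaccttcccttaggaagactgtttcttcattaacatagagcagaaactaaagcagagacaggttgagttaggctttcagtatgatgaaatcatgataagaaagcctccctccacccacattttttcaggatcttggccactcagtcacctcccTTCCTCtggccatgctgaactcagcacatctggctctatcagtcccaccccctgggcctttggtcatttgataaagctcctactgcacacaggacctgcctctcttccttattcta
Folr2 first promoter, GRCm38.p6 chr7:101845282-101845581, minus strand: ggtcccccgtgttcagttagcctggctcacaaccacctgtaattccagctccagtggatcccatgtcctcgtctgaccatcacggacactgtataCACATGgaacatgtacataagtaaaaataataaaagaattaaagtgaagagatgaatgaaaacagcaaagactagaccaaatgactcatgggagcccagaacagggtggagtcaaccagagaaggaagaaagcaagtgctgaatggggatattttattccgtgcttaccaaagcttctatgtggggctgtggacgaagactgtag
Fabp7, GRCm38.p6 chr10:57784673-57784972, plus strand: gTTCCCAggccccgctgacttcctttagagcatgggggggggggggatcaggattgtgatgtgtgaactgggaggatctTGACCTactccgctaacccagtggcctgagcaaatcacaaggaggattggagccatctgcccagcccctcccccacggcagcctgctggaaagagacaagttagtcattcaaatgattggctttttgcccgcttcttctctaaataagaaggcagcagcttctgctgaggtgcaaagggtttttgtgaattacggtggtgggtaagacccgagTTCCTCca
Slc16a9, GRCm38.p6 chr10:70245026-70245325, plus strand: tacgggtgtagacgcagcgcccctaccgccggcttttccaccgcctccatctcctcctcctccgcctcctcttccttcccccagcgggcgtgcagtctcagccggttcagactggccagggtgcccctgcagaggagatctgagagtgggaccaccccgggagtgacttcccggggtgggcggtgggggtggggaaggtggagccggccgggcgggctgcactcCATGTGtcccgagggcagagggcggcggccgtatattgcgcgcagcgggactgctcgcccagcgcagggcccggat
Il18bp, GRCm38.p6 chr7:102018183-102018482, minus strand: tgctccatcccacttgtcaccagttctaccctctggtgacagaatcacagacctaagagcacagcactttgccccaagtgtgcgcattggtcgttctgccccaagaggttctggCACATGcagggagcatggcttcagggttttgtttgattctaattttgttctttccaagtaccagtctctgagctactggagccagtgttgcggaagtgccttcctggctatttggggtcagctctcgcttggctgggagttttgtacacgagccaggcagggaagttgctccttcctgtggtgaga
GAGGAA was in 2 of the 6 promoters (Cd5l and Fabp7) and in 28.3% of the 32851 mouse promoters of the table. In Cd5l the match started 66 bases before the start site, and in Fabp7 it lay behind the start site. AGGTCA and TGGGAA were each in 1 promoter, that of Fabp7, and in 16.3% and 25.6% of all promoters in that order. CATGTG was in 3 (the first promoter of Folr2, Slc16a9 and Il18bp) and in 14.2% of all. The second promoter of Folr2 held none of these letters. Matches of different motifs did not overlap. A match of this kind describes the letters of the window, not a bound site.

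Vsig4 had 9, 6, 2 and 4 counts in KO libraries 1 to 4, against 40604, 46735, 22498 and 25498 counts in WT libraries 1 to 4, so the libraries differed in the targeted gene as labelled. Total counts ran from 15264043 to 19513844 per library. The make-up of the libraries touches everything below. The summed CPM (counts scaled to a common TMM library size) of 10 melanoma genes, led by Tyrp1 and Pmel, was 2437, 3486, 12369 and 6449 in KO 1 to 4, against 486, 416, 5485 and 4707 in WT 1 to 4. The summed CPM of 8 other Kupffer cell genes (Clec4f, Timd4, Marco, Cd163, Clec1b, C6, Slc40a1 and Nr1h3) was 16528, 16082, 5413 and 12638 in KO 1 to 4, against 24059, 23254, 14139 and 15833 in WT 1 to 4. KO 3 thus had the most melanoma RNA and the least Kupffer cell RNA of the 8 libraries, and WT 1 and WT 2 the reverse. All 20 Kupffer cell marker genes examined were detected, and Clec4f, the lectin that defines the cell type, averaged 2218 ± 849 FPKM in KO and 3383 ± 779 FPKM in WT libraries (SD, n = 4 each). Of the other cells that could enter the gate, hepatocyte genes (12, led by Alb and Apoa1) summed to 209 to 859 CPM in KO and 464 to 2092 CPM in WT libraries, and monocyte genes (10, led by Plac8 and S100a4) to 451 to 684 CPM in KO and 657 to 797 CPM in WT libraries. Genes of stellate cells (led by Dcn and Lum), T cells (Trac and Thy1), B cells (Ighm and Cd79b), neutrophils (S100a9 and Csf3r) and dendritic cells (Clec9a and Batf3) summed to at most 374 CPM per list in KO and 376 CPM per list in WT libraries. Hepatocyte, stellate, monocyte, T cell, B cell, neutrophil and dendritic lists had none of their genes at 0 in all libraries, and neither had the melanoma list; their part in the results below was not tested.

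Ordered by FPKM, which divides counts by gene length and so allows levels of different genes to be compared, Cd5l stood far above the rest. It averaged 2240 ± 904 FPKM in KO and 3183 ± 847 FPKM in WT libraries (SD, n = 4 each), and was the gene of rank 8, 8, 26 and 10 of the whole table in KO 1 to 4, against rank 7, 6, 13 and 8 in WT 1 to 4. Fabp7 averaged 173 ± 60.3 FPKM in KO and 234 ± 28.7 FPKM in WT, and Folr2 167 ± 77.4 FPKM in KO and 234 ± 77.2 FPKM in WT. These neighbours did not differ beyond their spread: Fabp7 was below Folr2 in libraries 1 and 2 of both genotypes and above it in libraries 3 and 4 of both, with ratios from 0.956 to 1.38 in KO and from 0.831 to 1.36 in WT libraries. Il18bp followed with 126 ± 48.7 FPKM in KO and 182 ± 36.0 FPKM in WT, and Cdh5 with 95.0 ± 42.7 FPKM in KO and 140 ± 50.8 FPKM in WT. The spreads of these 2 genes overlapped, but the Cdh5 value was below that of Il18bp within each of the 8 libraries. Slc16a9 was lowest, at 22.5 ± 10.4 FPKM in KO and 29.1 ± 7.85 FPKM in WT. Even so, no gene of the 6 had fewer than 576 counts in a library, so counting error was small beside the differences between libraries.

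All 6 genes had lower mean levels in KO than in WT libraries, by a factor of 0.632 to 0.727, but none passed the unblocked test between the genotypes; with the library number as a block 4 did (Folr2, Fabp7, Cdh5 and Il18bp), as given after the single genes. The highest library exceeded the lowest 3.32 to 6.22 times, and the KO and WT ranges overlapped for 6 of 6 genes, where 5.56% of all tested genes had ranges that did not overlap. With edgeR's quasi-likelihood test and Benjamini-Hochberg adjustment over all tested genes, 0 of the 6 were called, against 0.0063% of all genes called lower in KO, which is Vsig4 alone; 0 of the 6 had an unadjusted p under 0.05. DESeq2 called 0 of the 6 as well, against 0.227% of all genes called lower, and so did limma on log2(FPKM + 1), against 0.0063%. The median log2 fold change of the 6 was -0.59, beside -0.0028 over all genes tested. In bulk RNA of sorted cells, fewer Kupffer cells among the sorted material and less of a transcript per Kupffer cell cannot be told apart.

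Cd5l (ENSMUSG00000015854) lies on chromosome 3 from 87265188 to 87278380, plus strand. These are the coordinates of the deposited table; their build is not given, and it is not that of the promoters. Its level was 5856, 5838, 1806 and 4393 CPM in KO 1 to 4, against 8359, 8902, 4431 and 5447 CPM in WT 1 to 4. KO 3 was far below every other library, and KO 1 and KO 2 were above WT 3 and WT 4. The log2 fold change of KO over WT was -0.60 ± 0.425 (SE; edgeR adjusted p = 0.509), with a 95% interval from -1.57 to 0.37.

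Folr2 (ENSMUSG00000032725) lies on the minus strand of chromosome 7 from 101489195 to 101506401 in the same coordinates. Its level was 349, 357, 95.3 and 213 CPM in KO 1 to 4, against 522, 486, 225 and 289 CPM in WT 1 to 4. The order of the libraries resembled that seen for Cd5l, with KO 3 alone under 100 CPM and WT 1 and WT 2 highest. The log2 fold change was -0.58 ± 0.433 (edgeR adjusted p = 0.516). Gm10602 shares 2784 bases of the locus on the opposite strand and had 275 to 871 counts; the strand setting of the counting is not given in the sources used here, so reads of these 2 genes may not be separated.

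Fabp7 (ENSMUSG00000019874) lies on the plus strand of chromosome 10 from 57660977 to 57664546. Its level was 270, 277, 106 and 197 CPM in KO 1 to 4, against 351, 353, 248 and 265 CPM in WT 1 to 4. This gene varied least: its highest library was 3.32 times its lowest, against 4.10 to 6.22 times for the other 5 genes. Its log2 fold change was -0.52 ± 0.292 (edgeR adjusted p = 0.492).

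Cdh5 (ENSMUSG00000031871) lies on the plus strand of chromosome 8 from 104828257 to 104871143. Its level was 522, 542, 141 and 364 CPM in KO 1 to 4, against 879, 802, 364 and 438 CPM in WT 1 to 4. It varied most of the 6, with a standard deviation of 0.82 log2 units over the 8 libraries. Its log2 fold change was -0.66 ± 0.446 (edgeR adjusted p = 0.500), with a 95% interval from -1.68 to 0.35.

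Slc16a9 (ENSMUSG00000037762) lies on the plus strand of chromosome 10 from 70080930 to 70121798. Its level was 111, 125, 31.9 and 75.0 CPM in KO 1 to 4, against 150, 151, 76.0 and 94.7 CPM in WT 1 to 4. The KO and WT libraries were interleaved, since KO 1 and KO 2 exceeded WT 3 and WT 4 while KO 4 was close to WT 3. The log2 fold change was -0.46 ± 0.406 (edgeR adjusted p = 0.562), the smallest of the 6.

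Il18bp (ENSMUSG00000070427) lies on the minus strand of chromosome 7 from 101664092 to 101667897, 157690 bases from Folr2. Its level was 501, 491, 172 and 337 CPM in KO 1 to 4, against 684, 705, 403 and 507 CPM in WT 1 to 4. WT 4 was above all KO libraries and WT 3 was below KO 1 and KO 2. The log2 fold change was -0.62 ± 0.341 (edgeR adjusted p = 0.492). Numa1 overlaps the locus by 80 bases on the other strand and had 2246 to 3389 counts, and reads in those bases may not be separated either.

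**Figure D1:**
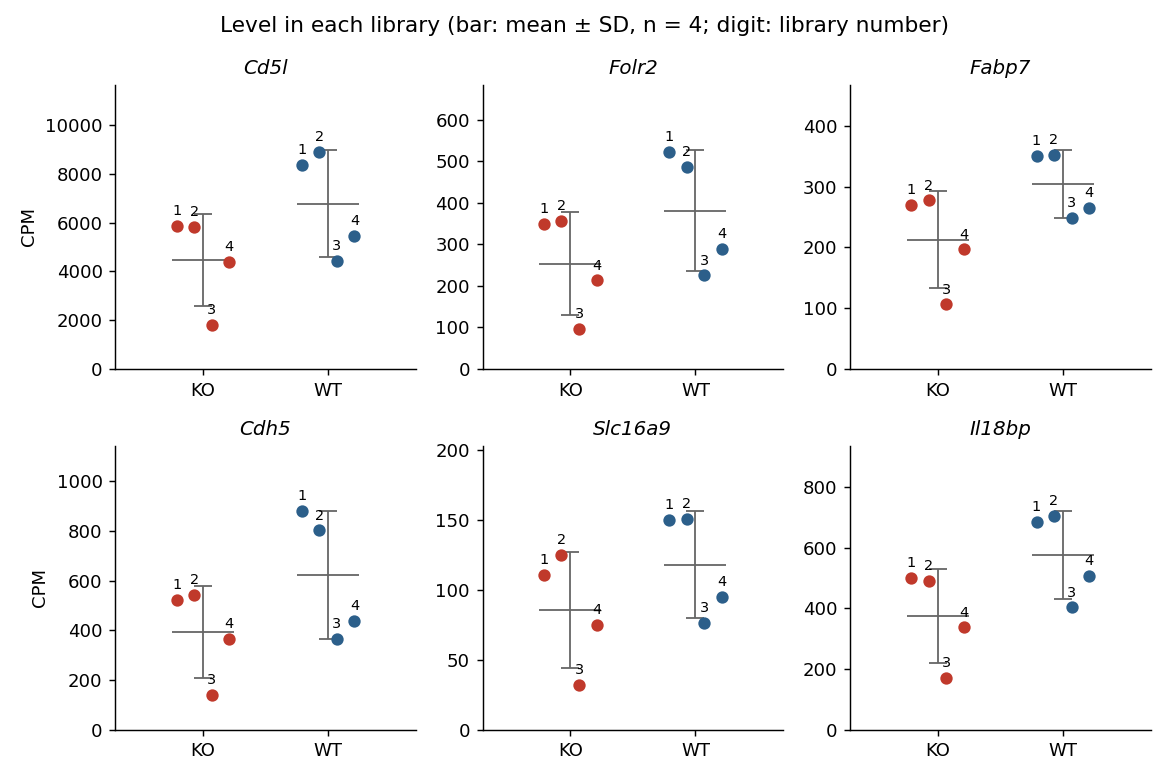
Level of each gene in CPM (y axis, from 0) in 4 KO and 4 WT libraries; each point is a library with its number, and the bar gives the mean ± SD. KO 3 is the lowest point in all 6 panels, and the KO and WT points overlap in each.

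The library numbers 1 to 4 were shared by the genotypes. Every one of the 6 genes was lower in the KO library than in the WT library of the same number, in all 4 numbers, as were 19.6% of all tested genes. With the number as a block in edgeR, 4 of the 6 passed the threshold: Folr2 (log2 fold change -0.67 ± 0.149, edgeR adjusted p = 0.0318), Fabp7 (-0.59 ± 0.158, 0.0470), Cdh5 (-0.73 ± 0.175, 0.0360) and Il18bp (-0.70 ± 0.147, 0.0291). Cd5l (-0.68 ± 0.195, edgeR adjusted p = 0.0553) and Slc16a9 (-0.56 ± 0.163, edgeR adjusted p = 0.0565) did not. The same fit called 5.01% of all genes lower. These calls need all pairs, or all but the fourth: without pair 1, 2 or 3 the blocked fit called 0 of the 6, against 1.02%, 0.00628% and 0.00627% of all genes called lower, and without pair 4 it called 4 (Cd5l, Folr2, Cdh5 and Il18bp), against 4.73%. The labels do not say what a number marks, and that the numbers pair the libraries was read from the data. Melanoma RNA was scarcer in the libraries numbered 1 and 2 than in those numbered 3 and 4, in KO and in WT alike. Whether same-numbered libraries are alike beyond this split was not tested.

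The levels of the 6 genes followed the amount of melanoma RNA in the library. WT 1 and WT 2, with the least melanoma RNA, had the highest level of every one of the 6, and KO 3, with the most, had the lowest. With the mean log2 CPM of the melanoma genes as a covariate, the log2 fold changes were -0.071 for Cd5l, 0.043 for Folr2, -0.17 for Fabp7, 0.015 for Cdh5, 0.089 for Slc16a9 and -0.19 for Il18bp, and 0 of 6 passed the edgeR test. Without WT 1, WT 2 and KO 3 they were 0.12 for Cd5l, 0.26 for Folr2, -0.047 for Fabp7, 0.25 for Cdh5, 0.28 for Slc16a9 and -0.036 for Il18bp, again with 0 of 6 called. Leaving out KO 3 alone brought the median of the 6 to -0.33. Melanoma RNA and genotype differ together in these libraries and cannot be told apart as sources of the difference.

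**Figure D2:**
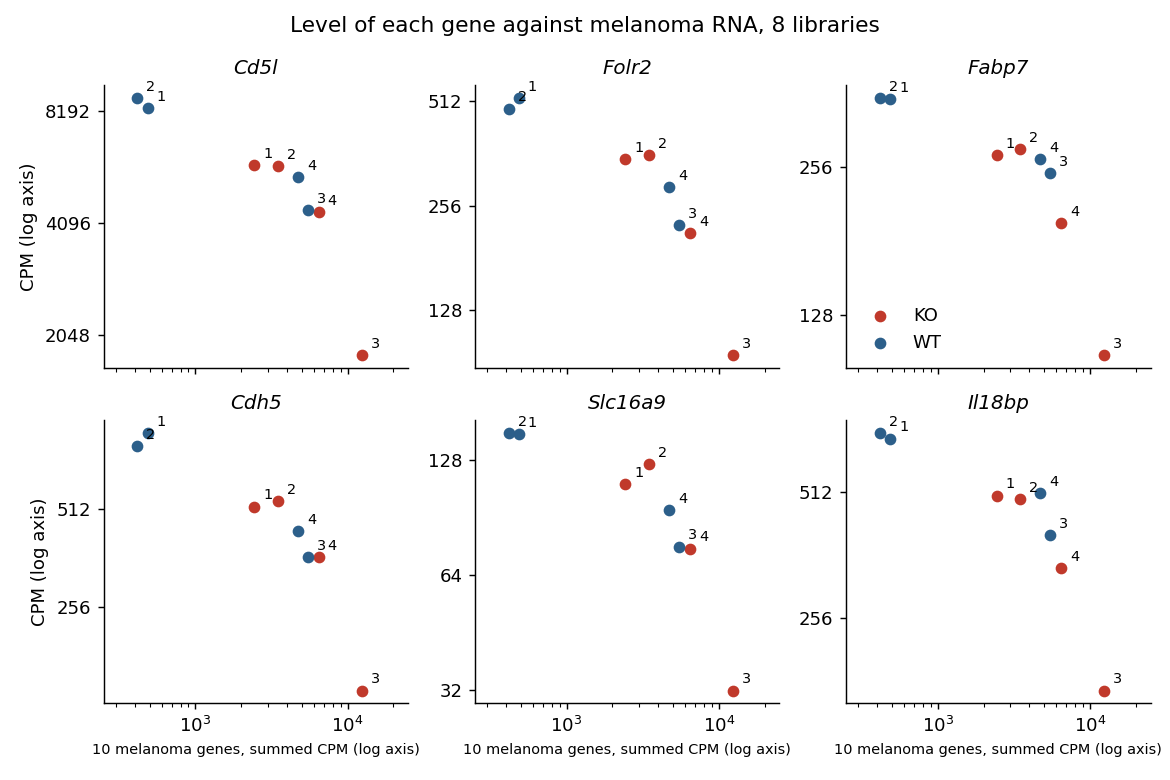
Level of each gene in CPM (y axis, log scale) against the summed CPM of 10 melanoma genes (x axis, log scale) in 4 KO and 4 WT libraries, numbered. In each panel WT 1 and WT 2 stand at the upper left (486 and 416 CPM of melanoma genes), KO 3 at the lower right (12369 CPM), and the other 5 libraries lie between them.

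Set against other Kupffer cell genes of the same library, the 6 genes were nearly level between the genotypes. Per 1000 counts of the 8 Kupffer cell genes, Cd5l had 354, 363, 334 and 348 counts in KO 1 to 4, against 347, 383, 313 and 344 in WT 1 to 4. KO 3, which had less than every other library in CPM, fell within the WT range on this scale. Il18bp had 30.3, 30.6, 31.7 and 26.6 counts per 1000 in KO 1 to 4, against 28.4, 30.3, 28.5 and 32.0 in WT 1 to 4. Cdh5 had 31.6, 33.7, 26.1 and 28.8 in KO, against 36.5, 34.5, 25.7 and 27.6 in WT, numbered alike. The genotypes overlapped for each of these 3.

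Folr2 had 21.1, 22.2, 17.6 and 16.9 counts per 1000 in KO 1 to 4, against 21.7, 20.9, 15.9 and 18.2 in WT 1 to 4. Slc16a9 had 6.70, 7.78, 5.89 and 5.94 in KO, against 6.23, 6.48, 5.37 and 5.98 in WT. Cd5l, Folr2, Cdh5 and Slc16a9 were thus higher in libraries 1 and 2 than in libraries 3 and 4 in both genotypes, a split that melanoma RNA follows too and that was seen only after the values were computed. Fabp7 went the other way in WT, where libraries 3 and 4 were above libraries 1 and 2, and in KO for KO 3, its highest library. It had 16.3, 17.2, 19.6 and 15.5 counts per 1000 in KO 1 to 4, against 14.6, 15.2, 17.5 and 16.7 in WT 1 to 4.

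Exact 2-sided permutation tests of these ratios, with 0.0286 as the smallest p they can give, gave p = 0.829 for Cd5l, 0.886 for Folr2, 0.343 for Fabp7, 0.771 for Cdh5, 0.371 for Slc16a9 and 0.943 for Il18bp. The spread shrank on this scale. The standard deviation over the 8 libraries was 0.56 to 0.82 log2 units in CPM and 0.085 to 0.19 log2 units as a ratio, and the highest library exceeded the lowest 3.32 to 6.22 times in CPM and 1.20 to 1.45 times as a ratio.

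**Figure D3:**
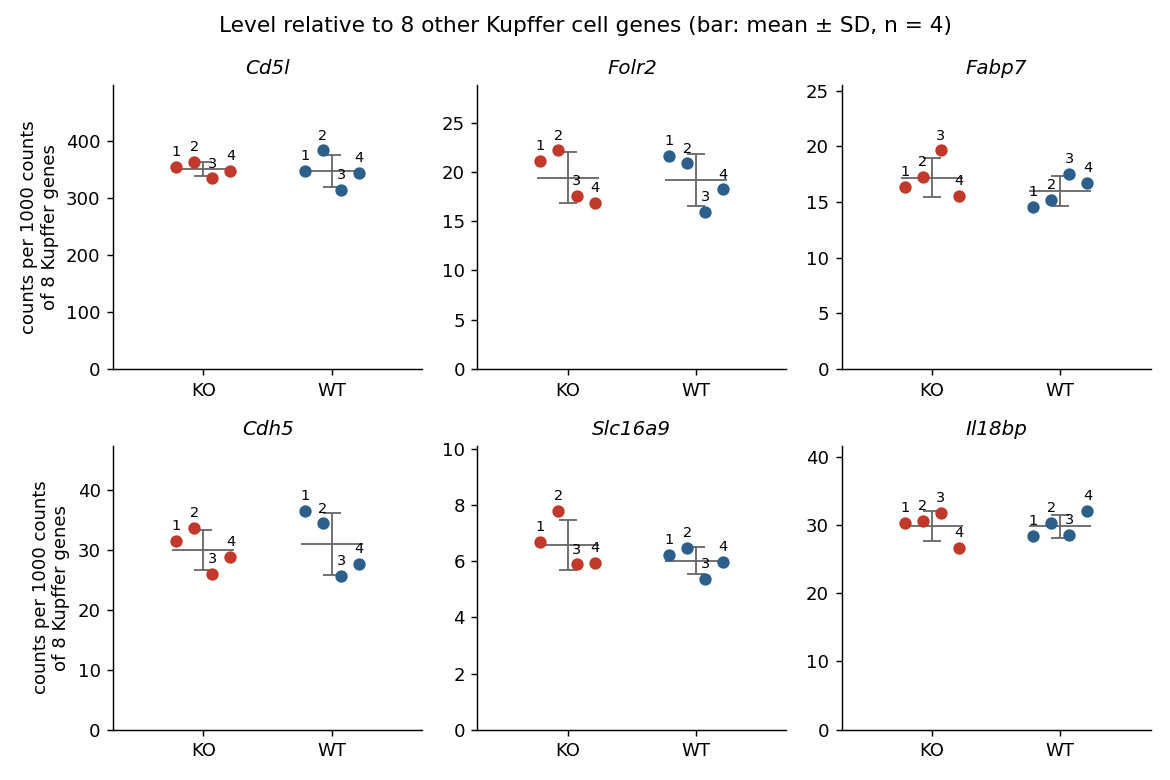
Counts of each gene per 1000 counts of 8 other Kupffer cell genes of the same library (y axis, from 0) in 4 KO and 4 WT libraries; points are libraries with their number and bars the mean ± SD. The KO and WT points overlap in all 6 panels, and KO 3 is the lowest KO library for Cd5l, Cdh5 and Slc16a9 and the highest for Fabp7 and Il18bp.

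The same scaling was carried into the fit over all genes by setting library sizes to the counts of the 8 Kupffer cell genes. The log2 fold change was then 0.011 for Cd5l (95% interval -0.26 to 0.28), 0.020 for Folr2 (-0.48 to 0.52), 0.10 for Fabp7 (-0.37 to 0.57), -0.050 for Cdh5 (-0.53 to 0.43), 0.13 for Slc16a9 (-0.41 to 0.67) and -0.00049 for Il18bp (-0.42 to 0.42). Both fits use the same counts and differ in the library sizes, so the shift of the 6 estimates between them comes from the scaling. The narrowest interval was that of Cd5l, and those of the other 5 genes leave room for changes of 0.37 log2 units in either direction. In this fit 0 of the 6 were called, against 0.0063% of all genes, and with the number as a block 0 of the 6 against 44.9%. This scaling moved the median log2 fold change of all tested genes to 0.81, so relative to the typical gene the 6 stayed below it, as in the TMM-scaled fit. It takes the 8 genes as its measure, so it shows how the 6 stood to those genes and not whether all Kupffer cell genes moved.

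**Figure D4:**
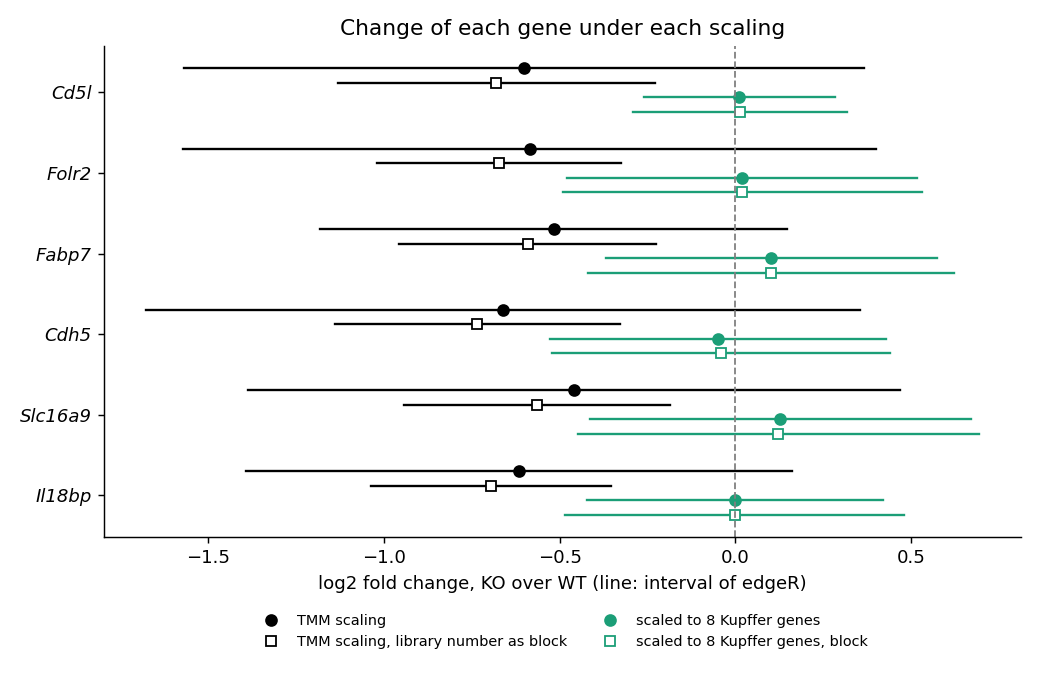
Log2 fold change of KO over WT (x axis; lines are the 95% intervals of edgeR) for each gene under TMM scaling (black) and scaled to 8 Kupffer cell genes (green), without a block (filled circles) and with the library number as a block (open squares). Under TMM scaling all 6 estimates lie between -0.46 and -0.73, and under the Kupffer cell scaling between -0.050 and 0.13.

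Cd5l belongs to the SRCR family and is a target of the sterol receptor LXR in mouse macrophages. Of 10 tested SRCR family genes besides Cd5l, 6 had lower and 4 higher values in KO and 0 passed the unblocked test (median log2 fold change -0.21). The most expressed were Marco and Cd163, scavenger receptors for particles and for hemoglobin-haptoglobin, with log2 fold changes of -0.42 ± 0.380 and -0.52 ± 0.353, then Lgals3bp (-0.65 ± 0.281), a secreted galectin-3 ligand, and the scavenger receptor Msr1 (-0.77 ± 0.328). With the library number as a block, a fit that called 5.01% of all genes lower and 8.98% higher, 3 were lower, Lgals3bp, Msr1 and the lymphocyte receptor Cd5, the last named after its values were seen; it averaged 0.0875 ± 0.175 FPKM in KO and 1.22 ± 0.691 FPKM in WT libraries. Of 17 genes of the LXR axis, 12 had lower and 5 higher values and 0 passed the unblocked test (median -0.36). The lipoprotein genes Apoe and Apoc1 had log2 fold changes of -0.63 ± 0.358 and -0.80 ± 0.333, and the phospholipid transfer gene Pltp one of -0.37 ± 0.307. With the block 4 of the 17 were lower, against 5.01% of all genes (Apoe, Apoc1, the LXR partner Rxra and the cholesterol exporter Abcg1) and 2 higher, against 8.98% of all genes, the lipid synthesis genes Scd2 and Fasn. Scd2 and Fasn were lowest in WT 1 and WT 2 and highest in KO 3, as melanoma RNA was, and its part was not tested.

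Folr2 brings folate into the cell, where it serves 1-carbon metabolism. Of 23 other genes of folate uptake and use, 9 had lower and 14 higher values in KO, and 0 passed the unblocked test (median log2 fold change 0.41). The most expressed were Ggh, which trims folate polyglutamates in lysosomes (-0.27 ± 0.171), Shmt2, the serine hydroxymethyltransferase of mitochondria (0.61 ± 0.356), the lysosomal carrier Slc46a3 (-0.45 ± 0.232) and Mtr, methionine synthase (-0.27 ± 0.156). With the block 9 of the 23 were higher, against 8.98% of all genes, among them Shmt2, the mitochondrial enzyme Mthfd2 (0.78 ± 0.170) and Tyms, which makes thymidylate (0.80 ± 0.171). In the same fit 1 of the 23 was lower, Aldh1l1, against 5.01% of all genes. Mthfd2, Tyms and Aldh1l1 were picked after their values were seen. Melanoma RNA was also higher in KO than in WT libraries of the same number, and its part in these values was not tested. Aldh1l1 was highest in WT 3 (9.60 FPKM), as was the hepatocyte gene Alb (589 FPKM). The part of hepatocyte RNA was not tested either.

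Within its own family Fabp7 had the highest FPKM in every library but KO 3. Of 14 other lipid-binding genes of the family, 5 had enough counts to be tested, 3 with lower and 2 with higher values in KO, and 0 passed the unblocked test. Fabp5, the epidermal form, averaged 60.8 ± 37.6 FPKM in KO and 27.0 ± 23.0 FPKM in WT, and its highest library was KO 3, at 115 FPKM, the library where Fabp7 was lowest, at 90.4 FPKM. Fabp1, the hepatocyte form, averaged 16.0 ± 9.38 FPKM in KO and 28.0 ± 28.8 FPKM in WT, Fabp3, the heart form, 5.32 ± 4.06 FPKM in KO and 1.87 ± 1.45 FPKM in WT, and Fabp4, the adipocyte form, 1.39 ± 0.60 FPKM in KO and 1.57 ± 0.779 FPKM in WT. With the block, which called 8.98% of all genes higher, Fabp5 (1.43 ± 0.296, edgeR adjusted p = 0.0287) and Fabp3 (1.52 ± 0.375, edgeR adjusted p = 0.0388) were higher in KO. Fabp5 and Fabp3 were lowest in WT 1 and WT 2 and highest in KO 3, as melanoma RNA was, and its part was not tested. Fabp6, Fabp9, Crabp1 and Rbp2 were at 0 in all libraries. Melanoma cells can make FABP7 too, so Fabp7 was set beside the melanoma genes: it had 0.111, 0.0795, 0.00859 and 0.0305 counts per melanoma count in KO 1 to 4, against 0.721, 0.848, 0.0452 and 0.0562 in WT 1 to 4. In CPM, the library with the most melanoma RNA, KO 3, had the least Fabp7 of all 8. WT 1 and WT 2, with the least melanoma RNA, had the most. Per 1000 counts of the 8 Kupffer cell genes these places were reversed: KO 3 had the most Fabp7 (19.6), and WT 1 and WT 2 the least (14.6 and 15.2). Not all libraries kept to this, since KO 4 had more melanoma RNA than KO 2 but less Fabp7 (15.5 against 17.2). Whether melanoma cells supplied part of the Fabp7 RNA was not tested.

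Cdh5 is best known from endothelium, so its level was set beside genes that define endothelial cells. In KO 1 to 4 it had 122, 129, 35.7 and 92.4 FPKM, against 192, 175, 88.6 and 106 FPKM in WT 1 to 4. Of 12 defining genes, Stab2, a scavenger receptor of sinusoidal endothelium, was the only one above 10 FPKM, with 34.3, 33.9, 11.7 and 25.7 FPKM in KO 1 to 4 and 42.1, 38.2, 24.1 and 25.0 FPKM in WT 1 to 4. Kdr, the VEGF receptor, had 1.59, 1.15, 0.57 and 0.46 FPKM in KO 1 to 4 and 3.87, 2.31, 1.23 and 0.72 FPKM in WT 1 to 4. Tek, the angiopoietin receptor, stayed between 0.15 and 0.62 FPKM in KO and between 0.36 and 1.63 FPKM in WT libraries, and Emcn was at or below 0.20 FPKM in KO and 0.31 FPKM in WT libraries. Cdh5 was thus present at a far higher level per length than every defining endothelial gene, in every library. Its count was 1.42, 1.57, 1.16 and 1.58 times the summed counts of the 12 genes in KO 1 to 4, against 1.54, 1.79, 1.45 and 1.76 times in WT 1 to 4. This ratio was lower in KO in 4 of 4 pairs, by a log2 difference of -0.20, but did not pass the exact 2-sided permutation test (p = 0.229). It was -0.10 without KO 3 and -0.32 against the longer list of endothelial genes. The sum of the 12 rests largely on Stab2, with a mean of 29.4 FPKM against 2.30 FPKM for Oit3, the next. The log2 fold change was -0.39 for Stab2 and -0.66 for Cdh5, against a median of -1.22 for the tested defining genes. The ratio therefore does not show that Cdh5 fell further than endothelial genes in general. Of 21 tested endothelial genes in the longer list, 18 had lower and 3 higher values in KO (median log2 fold change -0.67), 0 passed the unblocked test, and 9 were lower with the block, against 5.01% of all genes. Of the 12 defining genes 10 were tested, and all 10 had negative log2 fold changes (median -1.22), as had 50.4% of all tested genes. Of these 10, 0 passed the unblocked test and 6 were lower with the block, against 5.01% of all genes. Scaled to the 8 Kupffer cell genes, the median was -0.51 for the defining genes and -0.042 for the longer list, where the median of all genes was 0.81.

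**Figure D5:**
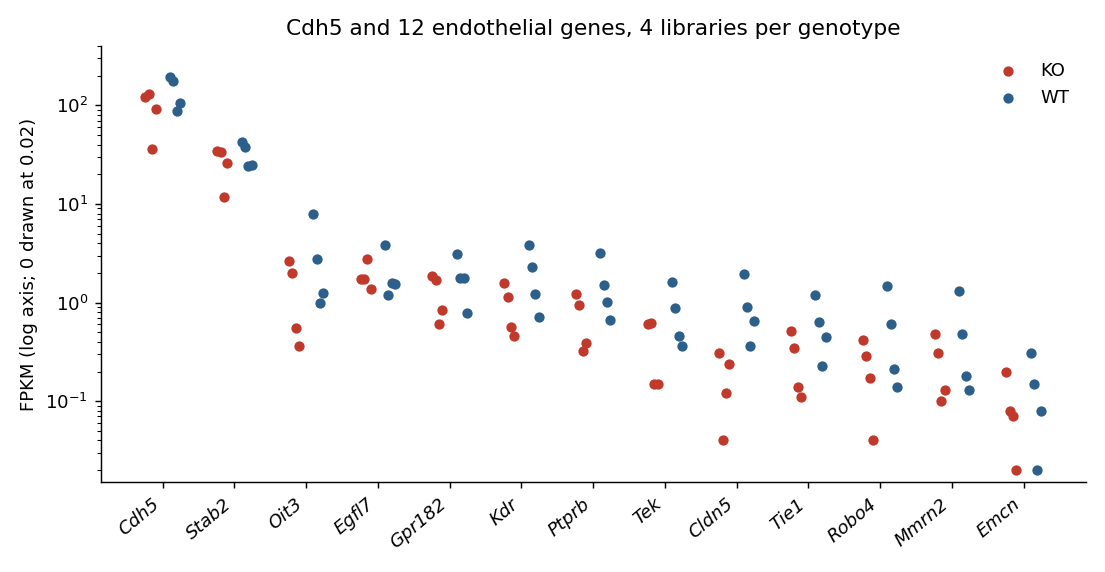
FPKM (y axis, log scale; values of 0 drawn at 0.02) of Cdh5 and 12 genes that define endothelial cells, with 4 KO points left of 4 WT points for each gene. Cdh5 lies between 35.7 and 192 FPKM, above Stab2 (11.7 to 42.1 FPKM), and Emcn lies at or below 0.31 FPKM.

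VE-cadherin is held at endothelial junctions by catenins. Of 14 tested genes of adherens junctions, 7 had lower and 7 higher values in KO, and 0 passed the unblocked test (median log2 fold change -0.0091). Ctnnb1, beta-catenin, had a log2 fold change of 0.67 ± 0.353, while Ctnna1, alpha-catenin (-0.060 ± 0.153), Ctnnd1, p120-catenin (-0.068 ± 0.264), and the junction phosphatase Ptprm (-0.11 ± 0.142) were near 0. With the block Ctnnb1, Cdh2, Nectin3 and Cdh13 were higher (8.98% of all genes were) and Cdh11 was lower (5.01% of all genes were), and the cadherins and the nectin were picked after their values were seen. Levels were near the floor for Cdh11 (mean 0.0225 FPKM in KO, 0.19 FPKM in WT) and low for Cdh13 (0.33 and 0.155 FPKM). Ctnnb1, Cdh2, Nectin3 and Cdh13 were lowest in WT 1 and WT 2 and highest in KO 3, as melanoma RNA was. Cdh2 had 0.30 and 0.26 FPKM in WT 1 and WT 2 and 4.70 FPKM in KO 3. The part of melanoma RNA in these values was not tested.

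By mean FPKM Slc16a9 was the second most expressed of the monocarboxylate transporter genes and their partners, behind Bsg, the chaperone of lactate carriers, with 138 ± 32.9 FPKM in KO and 109 ± 15.1 FPKM in WT. The 11 tested genes besides Slc16a9 had 5 lower and 6 higher values, and 0 passed the unblocked test (median log2 fold change 0.054). Slc16a10, an aromatic amino acid carrier (-0.50 ± 0.421), and Slc16a6 (-0.26 ± 0.203) had lower values in KO, and Emb, another chaperone, had a higher one (0.81 ± 0.252). With the block, against 8.98% of all genes higher and 5.01% lower, Emb and the lactate carrier Slc16a1 were higher and Slc16a7 was lower, the carriers being picked after their values were seen. Of 12 tested genes of carnitine and creatine handling, 6 had lower and 6 higher values and 0 passed the unblocked test (median -0.030). Ckb, the brain-type creatine kinase, had a log2 fold change of 0.14 ± 0.128, Gatm, which starts creatine synthesis, -0.48 ± 0.330, Aldh9a1, of carnitine synthesis, 0.034 ± 0.112, and Cpt1a, the carnitine palmitoyltransferase of the liver, -0.28 ± 0.178. In the same blocked fit Gatm was lower and the creatine transporter Slc6a8 higher, the second named after its values were seen. Emb, Slc16a1 and Slc6a8 were lowest in WT 1 and WT 2 and highest in KO 3, as melanoma RNA was. The part of melanoma RNA in these values was not tested.

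Il18bp was expressed beside its ligand. Il18 had 99.7, 104, 42.7 and 92.5 FPKM in KO 1 to 4, against 105, 115, 85.7 and 119 FPKM in WT 1 to 4. Il18bp averaged 126 FPKM in KO and 182 FPKM in WT, against 84.6 FPKM and 106 FPKM for Il18. Counts are not divided by gene length, so their ratio is larger than that in FPKM and serves only to compare libraries. The count of the binding protein gene was 4.80, 4.62, 4.15 and 3.76 times that of the ligand gene in KO 1 to 4, against 5.80, 5.43, 4.66 and 4.21 times in WT 1 to 4. Its mean was 4.34 ± 0.469 in KO and 5.03 ± 0.722 in WT (SD, n = 4 each), and the genotypes overlapped. The log2 difference of -0.21 did not pass the exact 2-sided permutation test (p = 0.171), nor did the difference within pairs, lower in KO in 4 of 4 with an SD of 0.054, for which 0.125 is the smallest exact sign-flip p and the one found. Without WT 1 the log2 difference was -0.14. In all, 9 single ratios were tested, and 0.171 was the lowest of their permutation p-values.

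Of 20 tested genes around interleukin-18, its receptor, its processing and the interferon gamma it induces, 15 had lower and 5 higher values in KO, and 0 passed the unblocked test (median log2 fold change -0.41). Ifngr1, an interferon gamma receptor chain, had a log2 fold change of -0.27 ± 0.280, the cytokine gene Il1b -1.18 ± 0.450, Il18 -0.41 ± 0.281 and the pore-forming Gsdmd -0.44 ± 0.277. With the block 6 were lower, against 5.01% of all genes, and 0 higher, against 8.98%: Il1b and, picked after their values were seen, the inflammatory caspases Casp1 and Casp4 and the sensors Nlrp3, Nlrp1b and Nlrc4. Scaled to the Kupffer cell genes, the log2 fold change of Il1b was -0.26, those of Casp1, Casp4 and Nlrc4 were -0.089, -0.011 and -0.14, and those of Nlrp3 and Nlrp1b 0.099 and -0.080.

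The fitted log2 fold changes of 20 of 20 other Kupffer cell marker genes were negative, as were those of 50.4% of all tested genes. Of the 20, 0 passed the unblocked test, and their median log2 fold change was -0.59. Single libraries could differ from this: Mertk and Nr1h3 had higher FPKM in KO 1 and KO 2 than in any WT library. The most expressed besides Clec4f (-0.70 ± 0.408) were Marco, Hmox1, the heme oxygenase (-0.43 ± 0.360), and the iron exporter Slc40a1 (-0.57 ± 0.390). With the block 11 were lower, against 5.01% of all genes, and scaled to the 8 Kupffer cell genes, which are among the 20, the median was 0.071. For this list and all lists before it, the blocked calls came from all 4 pairs: the whole table held 2 called genes without pair 2 and 1 without pair 3.

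Over the 8 libraries the log2 CPM values of the 6 genes varied together, with Pearson correlations from 0.975, for Fabp7 with Cdh5, to 0.996, for Folr2 with Cdh5. These are descriptions over n = 8 libraries that share the gradient of melanoma RNA and the difference of genotype. Of 7171 genes with a mean of at least 5 FPKM, 20.3% to 22.5% had a correlation above 0.9 with a given one of the 6. The genes nearest to Cd5l were Timd4, the Tim-4 receptor used for the sort, Laptm5 and Ctsh. Nearest to Folr2 were St3gal5, Wdfy3 and Rasgef1b, and near to Fabp7 were Ypel5 and Mtm1. Cdh5 was most like Ebi3, Csf1r, the receptor for macrophage colony-stimulating factor, and Sh3bgrl. Slc16a9 was most like Zbtb7a, Ncf1 and Rasgef1b, and Il18bp most like Scarf1, Soat1 and Tcf7l2. The correlations ran from 0.995 for Slc16a9 with Rasgef1b to 0.999 for Il18bp with Scarf1. Once the genotype means were removed, Wdfy3 for Folr2 was the only one of the 18 nearest pairs still among the nearest 3, so the rank within so many like genes is loose.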

How the data were processed

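RNA-seq of sorted Kupffer cells gave 8 libraries, 4 KO and 4 WT. The labels' protocols describe liver digestion, red cell lysis, the sort and a VAHTS Universal V8 library kit. The submitters' processing notes name HTSeq 0.6.1 and mm10; aligner, strand setting and gene annotation are not given there. The deposited table holds raw counts per gene, as its header says, next to FPKM computed by the authors, and FPKM equalled count per kilobase and library total to within 0.015 for 100% of genes. Deposited positions mostly differ from those of GENCODE M21 (GRCm38), although the notes name mm10. Of the gene IDs, 52073 occur there too, 1435 at the same position, none of the 6 genes among them (0 of 6). Positions are therefore printed without a build.

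The genotypes were compared with edgeR 4.0.16 in R 4.3.3 (2-sided quasi-likelihood test, TMM, filterByExpr, Benjamini-Hochberg over 15870 genes, threshold 0.05); DESeq2 1.42.0 and limma 3.58.1 served as alternatives. CPM uses TMM-scaled totals, and correlations use log2 CPM after a prior count of 2 was added. Ratios of counts were tested by exact permutation. Depth was 15264043 to 19513844 counts, and the biological coefficient of variation was 33.3%. No libraries agreed within sampling noise (lowest chi-square per degree of freedom 10.7). The fit was run on simulated counts with known changes. These lacked the shared gradient of melanoma and Kupffer cell RNA, so they do not show how the fit handles that gradient. Same-numbered libraries deviated together from their genotype means (correlations 0.561, 0.544, 0.660 and 0.290, each above 0.1), so blocked values are given for the results they change; this pairing is read from the data and no label states it.

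The 6 genes, the gene lists and the alternatives were chosen with earlier results of these data known. Of each family or pathway list the 4 most expressed tested genes are named, with any called gene, and for each of the 6 genes the 3 most correlated genes with a mean of at least 5 FPKM. Some genes that this rule names are not reported here.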

Additional observations from a re-analysis of the deposited data

How the results depend on the processing

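Over all genes, 1 gene (Vsig4) was called in the TMM-scaled edgeR fit, 66 in DESeq2 and 2 without a filter on low counts. Leaving out 1 library gave 1 to 2 calls. The replicate block gave 2220 calls, and without pair 1, 2 and 4 it gave 207, 2 and 2229; scaled to the Kupffer genes and with the replicate block, a setting added after the data were seen, there were 7118, of which 7064 were higher in KO; this setting moved the median log2 fold change of all genes to 0.69. Of the 6 genes, 4 were called with the replicate block and 4 in that fit without pair 4, and 0 under every other setting run. Their log2 fold changes turned to the opposite sign in 20 cases, none of which passed the test. Scaled to the Kupffer genes they were 0.011 (Cd5l), 0.020 (Folr2), 0.10 (Fabp7) and 0.13 (Slc16a9), and with the block 0.014, 0.020, 0.10 and 0.12 for the same genes. Scaled so and without KO 3, also added after the data were seen, they were 0.033 (Cd5l), 0.064 (Folr2), 0.033 (Fabp7), 0.012 (Cdh5) and 0.18 (Slc16a9). With the melanoma covariate they were 0.043 (Folr2), 0.015 (Cdh5) and 0.089 (Slc16a9), and with WT 1, WT 2 and KO 3 left out they came to 0.12 (Cd5l), 0.26 (Folr2), 0.25 (Cdh5) and 0.28 (Slc16a9). For Il18bp it came to -0.00049 scaled to the Kupffer genes and -0.0017 with the block, within the error of 0.

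Per Kupffer gene counts, the log2 difference of KO minus WT was 0.014 for Cd5l, but -0.048 with Clec4f left out of the Kupffer genes and -0.011 with the whole marker list; for Folr2 it was 0.020, but -0.042 and -0.0047 under the same settings. Leaving out 1 library gave ranges of -0.033 to 0.063 for Cd5l, -0.066 to 0.085 for Folr2, -0.13 to 0.042 for Cdh5 and -0.033 to 0.051 for Il18bp. These values lie within the spread of the libraries and no direction is drawn from them. With balanced pairs the pairing cannot change the mean log2 difference of a ratio, and 0.125 is the smallest sign-flip p that 4 pairs can give. Neither therefore checks the results. Sign-flip p was at 0.125 for Il18bp per Il18, Cdh5 per endothelial and Fabp7 per melanoma counts. With 3 libraries against 4, the smallest permutation p is 0.0571, so leaving out a library could not reach the threshold.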
